A study of Sus scrofa with 75 samples.

Results

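The let-7 miRNA family was measured in peripheral blood mononuclear cells (PBMCs) of piglets by small RNA sequencing. Members were all mature miRNAs whose name begins with ssc-let-7, with the entry of the largest total kept where a name has several entries. The rule found 10 mature let-7 names in 12 of the 479 rows, of 457 mature names in all. Of these 10, 9 passed the filter on low counts (reads in no fewer than 17 libraries, with over 2 reads on average), and they are 9 of the 209 miRNAs tested. The tenth, let-7i-3p, had 72 reads over all libraries and was not tested.

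The 39 libraries came from 13 pigs, each sampled at day 11, day 20 and day 56 of age. The 8 control pigs grew up in farrowing crates and met no topsoil. The 5 topsoil pigs had daily contact with it between day 4 and weaning at day 20, after which both groups were kept soil-free. The day 11 and day 20 libraries thus fall within the exposure and the day 56 libraries after it. Pigs were of a synthetic Large White line, and the piglets sampled were those of median weight in their litter. Treatment and day were read from the column names, which match the sample descriptions. The separate treatment and age characteristics of the samples go against those descriptions in 33 of the 39 libraries, and they were not used.

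let-7 is among the best conserved miRNA families of animals. Each member is cut by DROSHA and then DICER1 from a hairpin, and one arm is loaded into an Argonaute protein. The 5p arm is the usual guide strand, and its seed, bases 2 to 8, pairs with target mRNAs such as HMGA2 and MYC. LIN28 proteins block let-7 maturation in embryonic and fetal cells, and let-7 is abundant in differentiated cells, blood cells included.

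The mature sequences are shown because the 5p members share 1 seed and differ elsewhere by few bases, which sets how well reads can be assigned to a member. They are read from the Sscrofa11.1 genome, the build of the study, at the positions of the RefSeq annotation, and are written 5′ to 3′ with the seed in capitals.
ssc-let-7a: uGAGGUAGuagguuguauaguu
ssc-let-7c: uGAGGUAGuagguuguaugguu
ssc-let-7d-5p: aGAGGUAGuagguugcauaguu
ssc-let-7e: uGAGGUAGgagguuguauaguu
ssc-let-7f-5p: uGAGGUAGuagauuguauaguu
ssc-let-7g: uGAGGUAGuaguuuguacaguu
ssc-let-7i-5p: uGAGGUAGuaguuugugcu
ssc-miR-98: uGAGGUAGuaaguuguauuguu
ssc-let-7d-3p: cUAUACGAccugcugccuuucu
The first 8 of these are the tested miRNAs with the let-7 seed, among the 179 tested miRNAs that have a RefSeq position. ssc-miR-98 carries the seed under another name, and ssc-let-7d-3p, the other arm of the let-7d hairpin, has a seed of its own. ssc-let-7f-3p is named only.

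Counted from 1 at the 5′ end, with the base of let-7a first, let-7c has A19G, let-7e has U9G and let-7f-5p has G12A as the only difference. let-7d-5p has U1A and U16C, and let-7g has G12U and U18C. let-7i-5p is annotated with 19 bases and has G12U, A17G, U18C and A19U over them. Of the 28 pairs of sequences with the seed, 3 are 1 base apart and 9 are 2 bases apart. How many mismatches the authors allowed is not given in the sources used here, so counts of members 1 base apart may include reads of each other.

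The let-7 genes lie in several clusters. On chromosome 3, plus strand, let-7a-2 (chr3:43465677-43465698), let-7f-2 (chr3:43466044-43466065) and both arms of let-7d (chr3:43468511-43468532 and chr3:43468565-43468586) overlap no other annotated gene. let-7f-1 (chrX:46303299-46303320, minus strand) and miR-98 lie 841 bases apart in an intron of HUWE1, a ubiquitin ligase gene, on its strand. let-7g (chr13:34406195-34406216, minus strand) lies in an intron of WDR82 on its strand, 34913 bases from miR-135, which was not among the tested miRNAs. let-7c (chr13:181303224-181303245, plus strand) lies in an intron of the protein-coding gene LOC106508546, 708 bases from miR-99a. let-7e (chr6:58332091-58332112, minus strand) lies 140 bases from miR-99b and 455 bases from miR-125a. let-7a-1 (chr9:49152637-49152658, minus strand) lies 5293 bases from miR-100 and 43130 bases from miR-125b-1. let-7e, let-7a-1 and let-7i (chr5:27252807-27252825, plus strand) overlap no other annotated gene.

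let-7a and let-7f-5p are each made from 2 of these hairpins, and the counts do not separate them. The entry for let-7a-2 held 99.9% to 100.1% of the count of let-7a-1 in every library, and that for let-7f-2 held 89.7% to 98.7% of let-7f-1. Values for these members therefore stand for both genes together.

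Total counts with 1 entry per mature miRNA ranged from 1634831 to 13494765 per library, the lowest being control pig 7 at day 56. miR-486, a miRNA abundant in red blood cells, held 11.8% to 95.5% of a library. The markers fixed for this purpose put erythroid miRNAs (miR-486, miR-451 and miR-144, 3 of 3 found) at a median of 90.7% of reads at day 11, 85.8% at day 20 and 38.0% at day 56. The summed erythroid share ranged from 69.2% to 95.5%, from 65.5% to 95.5% and from 11.8% to 75.3% on these days. It is nearly all miR-486, with 290258758 reads over all libraries, against 204396 for miR-451 and 5366 for miR-144. The leukocyte marker miR-142, in both arms, had medians of 0.0513%, 0.141% and 0.810%, and the lymphocyte markers miR-150, miR-342 and miR-155 together had medians of 0.160%, 0.130% and 0.969%. Of the muscle markers, miR-1 and miR-206 were at 0 in all libraries and miR-133a had 20 reads, and the liver marker miR-122 had 24 reads in all. The libraries are thus of PBMCs with a large erythroid share that was lower at day 56. The part of this share in the let-7 changes between days below was not tested. In such bulk RNA, a lower number of cells of a type cannot be told apart from less of a miRNA in each cell.

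let-7 held a large part of the reads beside miR-486, with 3 members among the 6 most abundant miRNAs. The family held 29.0% to 56.1% of the reads other than miR-486, with a median of 42.8%. In control pigs the mean share was 42.9% ± 8.92 at day 11, 44.9% ± 6.29 at day 20 and 36.8% ± 7.02 at day 56 (SD, n = 8). In topsoil pigs it was 47.9% ± 6.86, 44.0% ± 8.36 and 43.1% ± 8.55 (SD, n = 5). The ranges of the 6 groups overlapped throughout. As a share of all reads, let-7 ranged from 1.81% to 46.0%, with medians in control pigs of 3.42%, 10.1% and 16.9% at days 11, 20 and 56 and in topsoil pigs of 5.51%, 3.68% and 30.6%.

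The members differed in abundance by several orders of magnitude, and their order was stable across libraries. Mature miRNAs are of nearly the same length, so reads were compared without division by length. let-7f-5p held 64.0% of the let-7 reads (24133377 reads, rank 3 of all miRNAs), let-7a 19.6% (rank 4) and let-7i-5p 12.6% (rank 6). let-7g held 2.38%, let-7c 1.02%, let-7d-5p 0.390%, let-7d-3p 0.0737% and let-7e 0.0152%.
let-7f-5p exceeded let-7a in 39 of 39 libraries, with a median ratio of 2.84. let-7a exceeded let-7i-5p in 37 of 39, and let-7i-5p exceeded let-7g in 39 of 39. The neighbours that changed places most often were let-7g and let-7c, with let-7g higher in 32 of 39 libraries.
let-7f-3p had 361 reads in all, and in 19 of 39 libraries it had at most 3 reads. No change of let-7f-3p is given for that reason, and it is counted below only as a tested member.

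**Figure D1:**
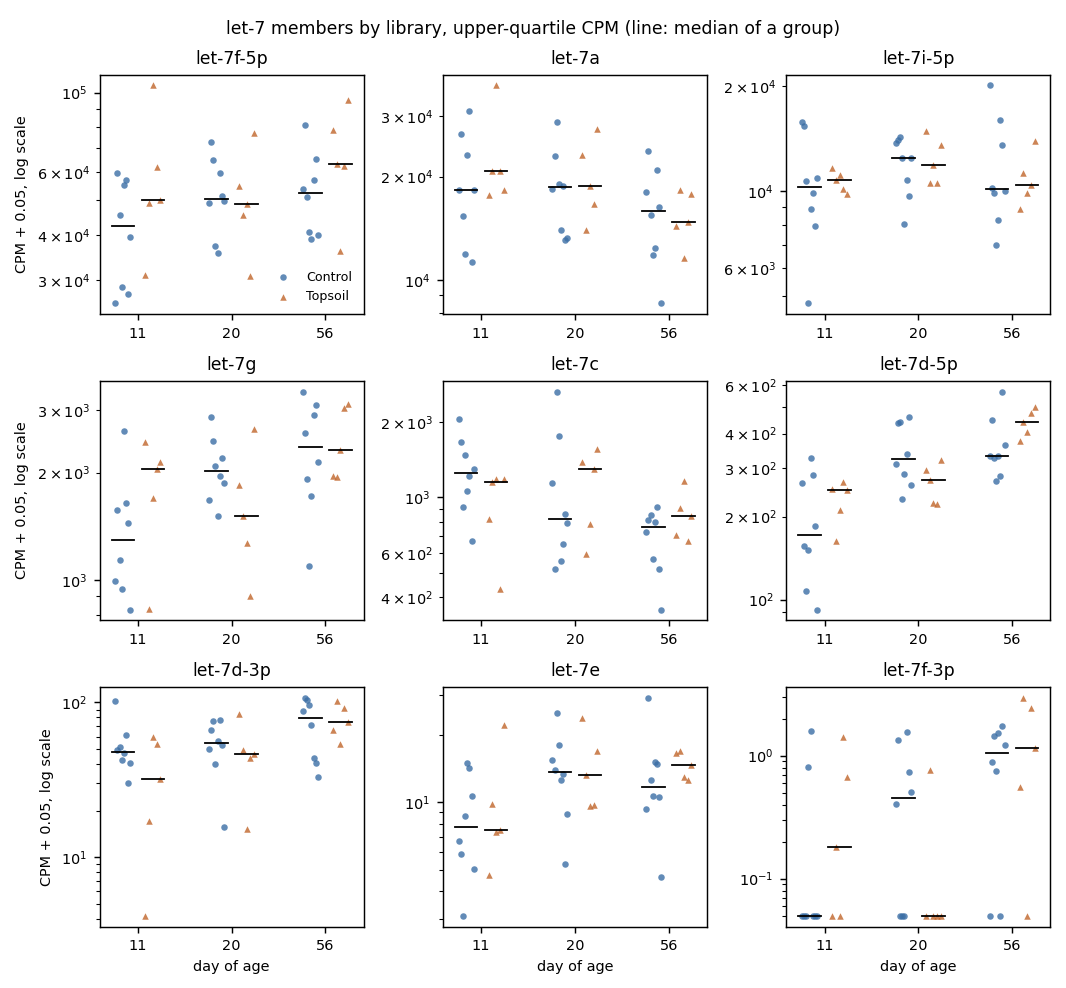
Level of each tested let-7 member in each of the 39 libraries, as upper-quartile CPM plus 0.05 on a log axis, by day of age. Circles are control pigs (n = 8), triangles are topsoil pigs (n = 5) and lines are group medians; let-7d-5p and let-7g sit higher at day 56 than at day 11 in most pigs (12 and 11 of 13).

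Levels below are CPM, counts divided by a library size that was scaled by the upper quartile of each library. Because the scale is set by the 75% quantile of the tested miRNAs, values on it are not shares of a library.

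The first question is which members differed with age over the full span from day 11 to day 56. All pigs were weaned and moved to a nursery at day 20. In comparisons with day 56, age therefore cannot be told apart from weaning and the move. In the mean of both treatments, let-7d-5p and let-7g rose, and the other 7 tested members did not pass the test. let-7d-5p rose by 0.93 ± 0.19 (log2, SE; edgeR quasi-likelihood test, adjusted p = 0.000457), which is 1.90-fold. let-7g rose by 0.67 ± 0.20 (adjusted p = 0.015), which is 1.59-fold. Calls use an adjusted p under 0.10 over all 209 miRNAs. Thus 2 of 9 members were called, beside 25.4% of all tested miRNAs (53, of which 36 were higher at day 56). The changes of the members other than let-7f-3p lay between -0.52 and 0.93, and the median change over all 209 miRNAs was 0.46.

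let-7d-5p is made from the third hairpin of the chromosome 3 cluster. In control pigs its CPM had a lowest, median and highest value of 91.9, 171.0 and 326 at day 11, of 232, 324 and 461 at day 20, and of 269, 332 and 569 at day 56. In topsoil pigs 1 to 5 it was 253, 163, 212, 267 and 250 at day 11. At day 20 these pigs had 294, 273, 224, 223 and 322, and at day 56 they had 376, 440, 404, 476 and 498. All 5 topsoil values at day 56 exceed all those at days 11 and 20, while the control ranges overlap between days. let-7d-5p was higher at day 56 than at day 11 in 12 of 13 pigs. On this contrast the call held under each alternative named below and without each pig in turn, with log2 changes of 0.60 with miR-486 left out of the library size (adjusted p = 0.0304, edgeR) and 0.77 with TMM (adjusted p = 0.00492, edgeR).

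let-7g is transcribed within WDR82. Its CPM in control pigs ranged from 826 to 2625 with a median of 1293 at day 11, from 1514 to 2864 with a median of 2027 at day 20, and from 1092 to 3378 with a median of 2365 at day 56. Topsoil pigs 1 to 5 had 2446, 829.2, 1699, 2051 and 2140 at day 11. They had 1845, 1512, 1266, 901 and 2646 at day 20 and 1958, 1944, 2315, 3036 and 3124 at day 56. The ranges of days 11 and 56 overlap in both treatments, and let-7g was higher at day 56 in 11 of 13 pigs. With miR-486 left out of the library size its change was 0.35 (adjusted p = 0.256, edgeR) and the call was lost.

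The values of let-7a and let-7c lay in the other direction, and their calls depended on the scale and on the model. let-7a had a change of -0.42 ± 0.19 (SE; adjusted p = 0.125, edgeR), and it was lower at day 56 in 11 of 13 pigs. Without topsoil pig 3, which had the highest day 11 value, the change was -0.24 (adjusted p = 0.462, edgeR), and without control pig 7 it was called, at -0.49 (adjusted p = 0.0736, edgeR). With miR-486 left out of the library size the change of let-7a was -0.72 ± 0.15 (adjusted p = 0.000399, edgeR), and it was lower at day 56 in all 13 pigs. let-7c had a change of -0.52 ± 0.24 (adjusted p = 0.125, edgeR), and of -0.83 ± 0.24 with miR-486 left out (adjusted p = 0.013, edgeR). Both were also called lower with no RNA quality term (-0.43 and -0.51, adjusted p = 0.0868 and 0.0936, edgeR) and with limma (-0.40 and -0.52, adjusted p = 0.0981 and 0.0977). let-7c was called without control pig 3 or 6 (-0.57 and -0.63, adjusted p = 0.0673 and 0.0679, edgeR).
In control pigs the CPM of let-7a had a lowest, median and highest value of 11251, 18272 and 31085 at day 11, of 13049, 18605 and 28970 at day 20, and of 8533, 15839 and 23758 at day 56. In topsoil pigs 1 to 5 it was 17687, 20769, 36933, 20791 and 18274 at day 11. At day 20 they had 23141, 14009, 18757, 16665 and 27526, and at day 56 they had 14310, 18270, 11546, 14736 and 17753. The topsoil ranges of days 11 and 56 overlap in few values, and those of control pigs overlap widely.
For let-7c, control pigs had a lowest, median and highest CPM of 668, 1256 and 2063 at day 11, of 517, 823 and 2653 at day 20 and of 356, 761 and 913 at day 56. Topsoil pigs 1 to 5 had 820, 1151, 1187, 428 and 1183 at day 11 and 1387, 592, 786, 1297 and 1558 at day 20. At day 56 they had 705, 911, 1160, 667 and 842. The day ranges overlap in both treatments, and let-7c was lower at day 56 than at day 11 in 8 of 8 control pigs and in 4 of 5 topsoil pigs.

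The count of called members moved with the scale. With TMM, 4 of 9 members were called (let-7d-5p and let-7g higher, let-7a and let-7c lower), beside 27.3% of all tested miRNAs. With miR-486 left out of the library size, 3 of 9 were called (let-7d-5p higher, let-7a and let-7c lower), beside 20.1%. On this scale the median over all tested miRNAs was 0.14. With total counts, in which miR-486 sets the scale, 8 of 9 were called higher, beside 77.5% of all tested miRNAs called, and let-7a and let-7c turned to 1.62 and 1.51.

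**Figure D2:**
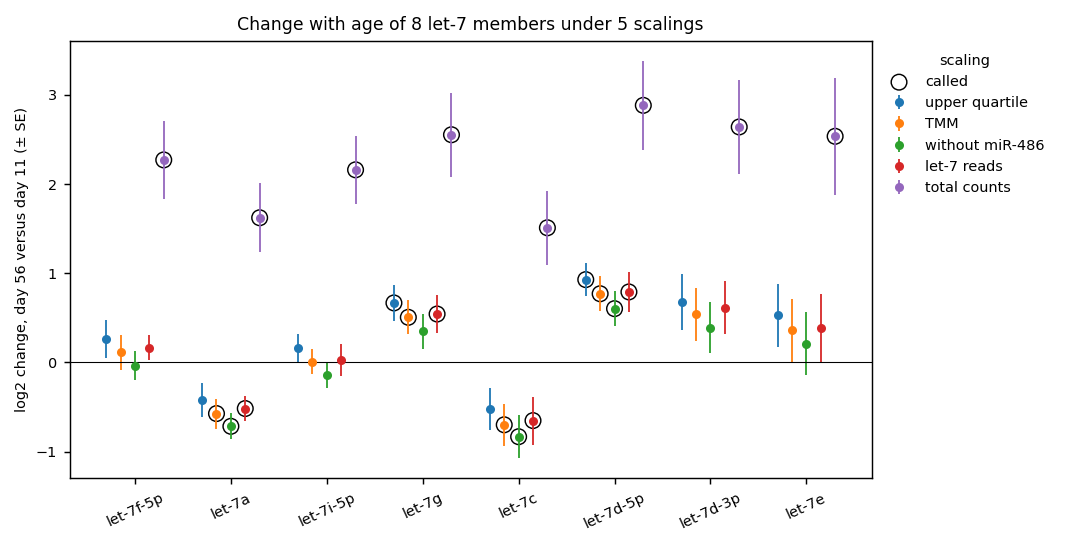
Log2 change from day 11 to day 56 over all 13 pigs for 8 let-7 members under 5 scalings, with bars of 1 SE; black rings mark changes called at an adjusted p under 0.10. let-7d-5p is called under all 5, while let-7a and let-7c lie below 0 under 4 scalings and above 0 under total counts.

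let-7f-5p and let-7i-5p, which together hold most of the let-7 reads, had small changes. let-7f-5p had a change of 0.26 ± 0.21 (SE; adjusted p = 0.438, edgeR), with a 95% interval of -0.16 to 0.68. let-7i-5p had 0.16 ± 0.16 (adjusted p = 0.52, edgeR), with an interval of -0.16 to 0.47. Both lay below 0 with miR-486 left out, at -0.04 and -0.14. Without topsoil pig 1 or 3 the change of let-7f-5p was 0.15 or 0.47, and that of let-7i-5p was 0.10 without topsoil pig 5. Over all 39 libraries the CPM of let-7f-5p ranged from 25791 to 104770 with a median of 51270, and that of let-7i-5p from 4750 to 20130 with a median of 10780. let-7d-3p had a change of 0.68 ± 0.31 (adjusted p = 0.128, edgeR), and it was called higher with no RNA quality term (0.84, adjusted p = 0.0452, edgeR), with no replicate block (0.71, adjusted p = 0.0549, edgeR), with limma (0.82, adjusted p = 0.0298) and with total counts. It was also called without control pig 8, topsoil pig 3 or topsoil pig 4 (0.76, 1.01 and 0.81, adjusted p = 0.0901, 0.0305 and 0.082, edgeR), and was at 0.38 (adjusted p = 0.516, edgeR) without topsoil pig 2. let-7e had a change of 0.53 ± 0.36 (adjusted p = 0.328, edgeR).

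A scale on the let-7 reads alone shows the changes within the family and takes no miR-486 reads into the library size. Shares of let-7a and let-7f-5p among the let-7 reads were still related to the miR-486 share at day 20 and day 56, as given below. On the let-7 scale, let-7a and let-7c fell, and let-7d-5p and let-7g rose, from day 11 to day 56. The log2 changes were -0.52 ± 0.14 for let-7a (SE; adjusted p = 0.00921, edgeR), -0.65 ± 0.27 for let-7c (adjusted p = 0.0998), 0.79 ± 0.22 for let-7d-5p (adjusted p = 0.0112) and 0.54 ± 0.21 for let-7g (adjusted p = 0.0821). These are 4 of 9 members, beside 21.5% of all tested miRNAs on this scale. let-7f-5p had a change of 0.16 ± 0.14 (adjusted p = 0.498, edgeR).

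The let-7a share of the let-7 reads was 25.02% ± 2.84 at day 11, 22.1% ± 3.32 at day 20 and 17.6% ± 2.66 at day 56 (SD, n = 13). It was lower at day 56 than at day 11 in 13 of 13 pigs. The let-7f-5p share was 57.6% ± 6.85, 59.8% ± 4.88 and 65.0% ± 5.46 on these days, and it was higher at day 56 in 12 of 13 pigs. The let-7d-5p share was 0.268% ± 0.106, 0.370% ± 0.0870 and 0.455% ± 0.111, higher in 11 of 13 pigs. The let-7g share was 1.99% ± 0.853, 2.20% ± 0.425 and 2.73% ± 0.678, higher in 9 of 13 pigs, and the let-7c share was 1.54%, 1.30% and 0.892%, lower in 10 of 13. let-7i-5p had mean shares of 13.5%, 14.2% and 13.1%.

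**Figure D3:**
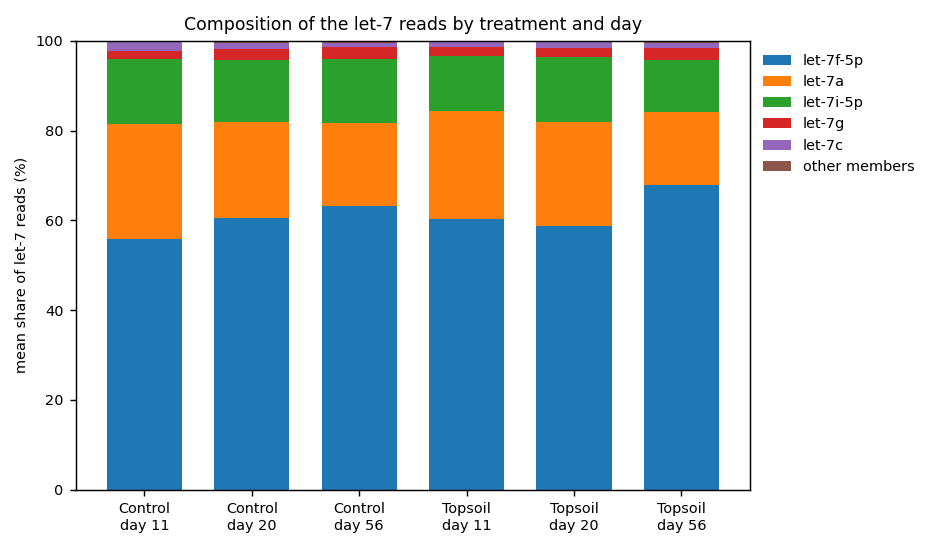
Mean share of the let-7 reads held by each member, in percent, for the 6 groups of treatment and day (control n = 8, topsoil n = 5). The let-7a part narrows from 25.6% to 18.6% in control pigs and from 24.1% to 16.2% in topsoil pigs between day 11 and day 56.

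**Figure D4:**
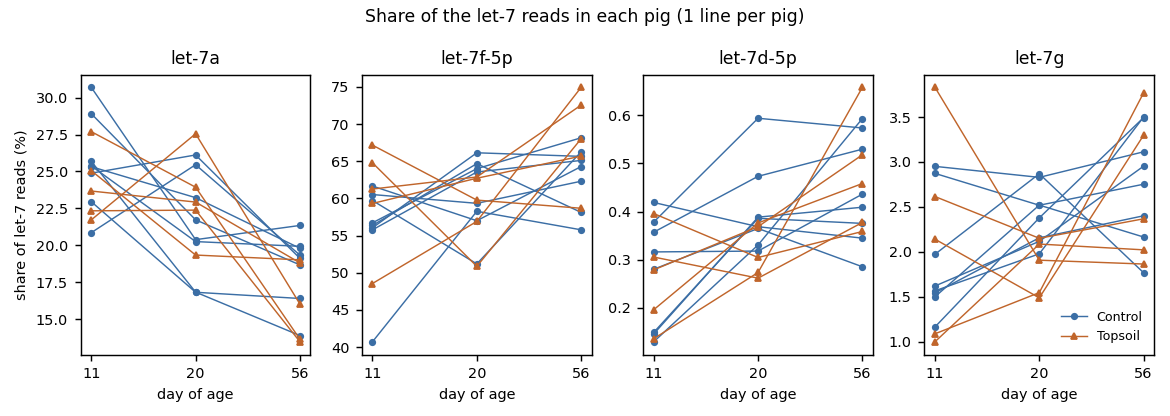
Share of the let-7 reads, in percent, held by let-7a, let-7f-5p, let-7d-5p and let-7g in each pig at days 11, 20 and 56; each line is 1 pig, with circles for control and triangles for topsoil, and the axes do not start at 0. All 13 lines of let-7a end lower at day 56 than at day 11, and 12 of 13 lines of let-7f-5p end higher.

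The shares of let-7a, let-7f-5p and let-7d-5p were set against the miR-486 share of a library within each day, over 13 pigs. At day 20 the let-7a share was higher in libraries with more miR-486 (Pearson r = 0.80, permutation p = 0.00104, adjusted 0.00936 over 9 relations; Spearman rho = 0.81, permutation p = 0.00143, adjusted 0.0129). Without the 2 pigs farthest from the median miR-486 share, r was 0.83. At day 56 the relation had r = 0.70 (permutation p = 0.00829, adjusted 0.0373) and rho = 0.63 (permutation p = 0.0242, adjusted 0.0436), and r = 0.57 without the 2 farthest pigs. At day 11 it had r = 0.30 (permutation p = 0.323, adjusted 0.427) and rho = 0.52 (permutation p = 0.0742, adjusted 0.111), with r = 0.34 without 2 pigs.
The let-7f-5p share went the other way, with r of -0.37, -0.67 and -0.65 at days 11, 20 and 56 (permutation p = 0.206, 0.0131 and 0.0169, adjusted 0.371, 0.038 and 0.038) and rho of -0.63, -0.68 and -0.73 (permutation p = 0.0229, 0.013 and 0.00696, adjusted 0.0436, 0.0389 and 0.0313). Without the 2 farthest pigs these r were -0.50, -0.80 and -0.56. Shares of let-7a and let-7f-5p are parts of 1 total, so these are not separate relations.
The let-7d-5p share had no relation past the threshold, with r of -0.25, -0.30 and -0.23 (permutation p = 0.426, 0.332 and 0.456, adjusted 0.456, 0.427 and 0.456) and rho of -0.16, -0.18 and -0.24 (permutation p = 0.589, 0.553 and 0.426, adjusted 0.589, 0.589 and 0.547). Without the 2 farthest pigs, r was -0.20, -0.48 and -0.10. Pigs of both treatments were pooled within a day. These relations were chosen after the shares had been seen, and their part in the changes between days was not tested.

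**Figure D5:**
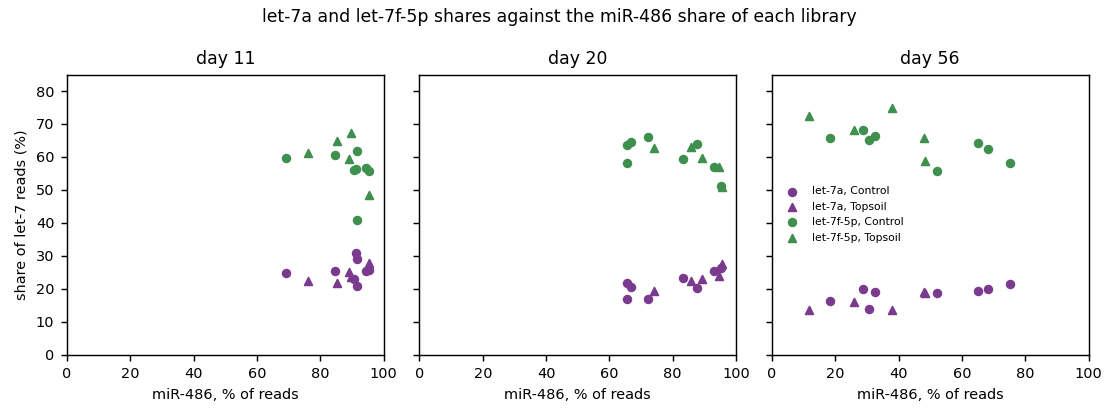
Share of the let-7 reads held by let-7a (purple) and let-7f-5p (green), in percent, against the share of all reads held by miR-486, in percent, with a panel for each day and circles for control and triangles for topsoil pigs. Libraries with more miR-486 have a larger let-7a share at day 20 and day 56.

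The steps between neighbouring days were compared within each treatment. In control pigs from day 11 to day 20, let-7d-5p rose by 0.84 ± 0.23 (log2, SE; adjusted p = 0.0762, edgeR), higher in 7 of 8 pigs. This is 1 of 9 members, beside 5.26% of all tested miRNAs (11, all higher at day 20). let-7g had a change of 0.65 ± 0.24 (adjusted p = 0.135, edgeR), also higher in 7 of 8 pigs. The let-7d-5p call is close to the threshold and was lost with TMM (0.68, adjusted p = 0.242, edgeR) and with miR-486 left out of the library size (0.68, adjusted p = 0.291, edgeR). DESeq2 (0.59, adjusted p = 0.137) and limma (0.77, adjusted p = 0.15) called 0 members, beside 7.84% and 0.478% of the miRNAs they tested, and edgeR called 0 with total counts, no filter, summed entries or the let-7 library size. The call was also lost without control pig 2, 3 or 8 or topsoil pig 5, with changes of 0.76, 0.67, 0.77 and 0.84. Without control pig 5, 2 members were called, let-7g being the second, at 0.88 (adjusted p = 0.0275, edgeR).

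In control pigs from day 20 to day 56, edgeR called 0 of 9 members, beside 12.4% of all tested miRNAs, and 0 of 9 members against 42 of all 209 had an unadjusted p under 0.05. DESeq2 and limma also called 0 members, beside 23.9% and 11.5% of the miRNAs they tested. The changes of the 8 members other than let-7f-3p lay between -0.59 and 0.18, the lowest being that of let-7c (SE 0.30, adjusted p = 0.271, edgeR). With miR-486 left out of the library size, 2 members were called lower, let-7c at -0.83 (adjusted p = 0.0771, edgeR) and let-7a at -0.49 (adjusted p = 0.0793, edgeR), beside 13.9% of all tested miRNAs. On that scale let-7a and let-7f-5p were each lower at day 56 than at day 20 in 8 of 8 control pigs.

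In topsoil pigs from day 11 to day 20, edgeR called 0 of 9 members, beside 0% of all tested miRNAs. None of the 9 members and 6 of all 209 miRNAs had an unadjusted p under 0.05. DESeq2 and limma called 0 members, beside 2.39% and 0% of all tested. let-7d-3p had a change of 0.92 ± 0.53 (SE; adjusted p = 0.996, edgeR), the highest of the members, and of 0.11 without topsoil pig 1. From day 20 to day 56 edgeR called 0 of 9, beside 9.57%, with 2 of 9 members and 44 of all 209 under an unadjusted p of 0.05. DESeq2 and limma called 0 members, beside 21.6% and 7.18% of the miRNAs they tested. Those 2 were let-7d-5p at 0.70 ± 0.30 (adjusted p = 0.151, edgeR) and let-7g at 0.72 ± 0.33 (adjusted p = 0.175, edgeR), the latter at 0.45 without topsoil pig 4. Both were higher at day 56 than at day 20 in 5 of 5 topsoil pigs. let-7d-5p was called with no RNA quality term (0.72, adjusted p = 0.0961, edgeR), beside 13.4% of all tested miRNAs. With total counts 7 of 9 members were called higher (all but let-7e and let-7f-3p), beside 50.7%.

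Whether the course with age differed between treatments was tested with the treatment by age interaction, the term the study is built on. edgeR called 0 of 9 members, beside 0% of all tested miRNAs. None of the 9 members had an unadjusted p under 0.05, against 22 of the 209 miRNAs, and DESeq2 and limma called 0 members, beside 0% of all tested. Adjusted p-values of the members (edgeR) ranged from 0.546 to 0.987.

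Topsoil and control pigs were then compared at each day, with 5 against 8 pigs. At day 11 edgeR called 0 of 9 members, beside 0% of all tested miRNAs. At day 20 it called 0 of 9, beside 0.957%, and at day 56 it called 0 of 9, beside 0%. None of the 9 members had an unadjusted p under 0.05 at any day, against 7, 28 and 5 of the 209 miRNAs, and DESeq2 called 0 members at each day, beside 0.478%, 4.31% and 0% of the 209. The ranges of topsoil and control CPM overlapped for all 9 members at all 3 days, as they did for nearly every miRNA: 0%, 0.957% and 0.957% of the 209 had ranges that did not overlap at days 11, 20 and 56.
Differences of the members other than let-7f-3p (topsoil minus control, log2) lay between -0.97 and 0.51 at day 11. They lay between -0.30 and 0.26 at day 20 and between -0.16 and 0.32 at day 56. At day 11 let-7f-5p had a difference of 0.51 ± 0.40 (SE; adjusted p = 0.989, edgeR), with a 95% interval of -0.27 to 1.29. At day 56 its difference was 0.32 ± 0.30 (adjusted p = 0.924, edgeR), with an interval of -0.28 to 0.91. Differences of more than 2-fold at day 11 thus lie within the interval for let-7f-5p. Without topsoil pig 3 its day 11 difference was 0.25, and without topsoil pig 1 it was 0.84. At day 56 it was 0.50 without topsoil pig 3 and 0.14 without topsoil pig 5, and none of these passed the test.
Control pigs had let-7f-5p CPM with a lowest, median and highest value of 25791, 42511 and 59588 at day 11, of 35656, 50624 and 72723 at day 20 and of 39019, 52542 and 81238 at day 56. Topsoil pigs 1 to 5 had 31000, 49165, 104770, 62024 and 50117 at day 11. They had 55016, 45427, 48895, 30763 and 77327 at day 20 and 78677, 63121, 36023, 62603 and 95705 at day 56. Topsoil pig 3 had the highest value of all at day 11 and the lowest value at day 56.

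The arms of let-7d come from 1 hairpin, so their ratio within a library needs no scaling. let-7d-3p held 1.61% to 32.3% of the let-7d reads, with a median of 15.3%, so that the 5p arm was the larger in 39 of 39 libraries. The log2 ratio of 3p to 5p reads had a mean of -1.84 ± 0.65 in control and -3.24 ± 1.58 in topsoil pigs at day 11 (SD, n = 8 and 5). At day 20 the means were -2.76 ± 0.60 and -2.66 ± 0.77, and at day 56 they were -2.41 ± 0.84 and -2.52 ± 0.31.
At day 11 the topsoil pigs lay 1.40 log2 units below control pigs (difference -1.40, exact permutation p = 0.0225), which did not pass after adjustment over the 6 tests of the ratio (adjusted 0.135). The lowest ratio, in topsoil pig 1, rests on 15 reads of let-7d-3p and 916 of let-7d-5p, and without this pig the difference was -0.74 (exact permutation, adjusted p = 0.182). Without control pig 5, control pig 7 or topsoil pig 3 it passed, at -1.54, -1.51 and -1.76 (exact permutation, adjusted p = 0.0833, 0.0985 and 0.0485). Topsoil pigs 2 to 5 had 132, 237, 516 and 409 reads of let-7d-3p at that day. At days 20 and 56 the differences were 0.10 (exact permutation p = 0.799) and -0.11 (exact permutation p = 0.786), adjusted 0.854 for both.
Over 13 pigs the ratio differed by -0.34 ± 1.69 from day 11 to day 20 (SD; exact sign-flip p = 0.487, adjusted 0.854), by 0.27 ± 0.62 from day 20 to day 56 (exact p = 0.141, adjusted 0.423) and by -0.07 ± 1.36 from day 11 to day 56 (exact p = 0.854, adjusted 0.854). In CPM, let-7d-3p at day 11 had a topsoil minus control difference of -0.97 ± 0.56 (log2, SE; adjusted p = 0.989, edgeR), and of -0.45 without topsoil pig 1.

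Members of the family varied together only in part. Among the 7 tested 5p members, Spearman correlations of log2 CPM over the 39 libraries ranged from -0.37 to 0.74 over 21 pairs, with a median of 0.31. The highest was that of let-7d-5p and let-7g, and the lowest that of let-7c and let-7d-5p. After the mean of each treatment and day was subtracted, the range was -0.08 to 0.76 with a median of 0.37, and let-7a and let-7f-5p were the closest pair. These correlations share the scale of each library and hold 3 libraries of each pig, so they are given as a description.

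The tested miRNAs outside the family most like the mean of the 5p members over 39 libraries were miR-29c (Spearman rho = 0.69), miR-320 (0.62), miR-101 (0.62), miR-221-3p (0.54) and miR-30b-5p (0.54). After the group means were subtracted, the first was miR-98 (0.65), which carries the let-7 seed, followed by miR-320 (0.59), miR-29c (0.57), miR-101 (0.53) and miR-26b-5p (0.52). miR-486 had rho of -0.05 and 0.26 in these comparisons.

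Of the tested neighbours on the genome named above, only miR-125a, beside let-7e, passed the test from day 11 to day 56, with a rise of 1.23 ± 0.38 (log2, SE; adjusted p = 0.0172, edgeR). let-7e itself had 0.53 ± 0.36 and miR-99b, from the same cluster, 0.13 ± 0.47. miR-100, beside let-7a-1, had -1.05 ± 0.81, miR-125b -0.27 ± 0.43 and miR-99a-5p, beside let-7c, -0.56 ± 0.52. miR-99a-3p had 1.34 ± 1.46, and miR-98, beside let-7f-1, had -0.33 ± 0.19 (adjusted p = 0.247, edgeR).
On the same contrast the erythroid markers fell, with log2 changes of -3.34 for miR-486, -1.62 for miR-451 and -2.51 for miR-144 (3 of 3 called). The leukocyte marker miR-142-5p rose by 1.55 and the lymphocyte marker miR-150 by 0.87, while miR-142-3p (0.71), miR-342 (-0.20), miR-155-5p (0.86) and the myeloid marker miR-223 (0.60) did not pass. Of the platelet and vascular markers, miR-143-3p fell, with a change of -1.66, and miR-126-3p (0.91) and miR-126-5p (1.15) did not pass. The erythroid markers did not move together in every comparison. In control pigs from day 11 to day 20, miR-486 had -0.90, miR-451 1.09 and miR-144 1.38. Between topsoil and control pigs at day 20 they had 0.92, -1.25 and -1.37, and none of these values was called. The part of the markers in the let-7 changes was not tested.

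The mRNA table of the study allowed a description of the let-7 pathway without treatment or age, over 34 columns with totals of 9150628 to 20726628 counts. Of 14 listed genes for let-7 processing, 10 were found by symbol. LIN28B, the fetal blocker of let-7, had a median of 0.0283 CPM and a read in 17 of 34 columns. DROSHA had a median of 11.5 CPM, DGCR8, its partner, 45.0 CPM, XPO5, which exports the hairpin, 49.7 CPM, and DICER1 28.9 CPM, each with reads in all 34 columns. TUT4, which can uridylate let-7 precursors, had 37.0 CPM, DIS3L2, which degrades uridylated precursors, 35.9 CPM, and the Argonaute genes AGO2 and AGO3 46.6 and 87.4 CPM.
Of 17 listed let-7 targets, 13 were found. MYC had a median of 106 CPM, NRAS 55.3 CPM, TGFBR1 36.6 CPM and IL10 7.15 CPM, while IL6 had 0.0575 CPM with a read in 18 of 34 columns and CCND1 0.269 CPM. IGF2BP2 and IGF2BP3 had 12.6 and 24.2 CPM. HBB, which encodes beta globin, ranged from 41740 to 675300 CPM in these columns, so that CPM of all other genes depend on it, and the leukocyte genes PTPRC, CD3E, CD79B and CD14 had reads in all 34. Values of let-7 and of its targets were not compared, since treatments and ages were not analysed here for mRNA.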

How the data were processed

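The authors deposited miRDeep2 counts per mature miRNA and precursor for 39 small RNA libraries, without normalization, from reads trimmed with Trim Galore 0.4.5 and mapped to Sscrofa11.1. The mRNA counts, also deposited without normalization, come from STAR 2.5.4a and featureCounts 2.0.3, and 2 of the 36 mRNA columns carry 1 name and were left out. Totals per library are given above. Reads carry no molecular identifiers, so counting error is a lower limit.

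Counts of the 209 tested miRNAs went into edgeR 4.0.16 under R 4.3.3 (quasi-likelihood F test, upper-quartile scaling, Benjamini-Hochberg adjustment, false discovery rate 0.10). Age comparisons had pig as a fixed block, age, RNA quality and treatment by age. By the column names and descriptions each pig gave a library at every day, and the pairing by animal rests on these. Deviations from group means had a mean correlation of 0.063 within a pig and -0.0059 across pigs, so the counts themselves show little of the pairing. Treatments were compared within a day with RNA quality as covariate. No 2 libraries were identical, and no batch is given in the labels. In edgeR age comparisons, the interaction included, the p-values measure the spread left after differences between pigs were removed. In treatment comparisons within a day they measure the spread between pigs. All pigs come from 1 trial.

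Alternatives were TMM, library sizes without miR-486, total counts, no filter, DESeq2 1.42.0, no RNA quality term, summed entries, no replicate block, limma 3.58.1 with random pig and sex, parity and litter size, and each pig left out. A library size of let-7 reads and the relations with miR-486 were added after the data were seen. DESeq2 shares are of miRNAs with an adjusted p. The code was tested on simulated counts. Exact and permutation tests used Python 3.11.15; permutation tests used 100000 resamples. The members and lists were chosen with earlier results of these data known. Named are all let-7 members, miR-98 with the let-7 seed, the genome neighbours miR-99a, miR-99b, miR-100, miR-125a and miR-125b, the 5 miRNAs most like the 5p members on each scale, and the markers.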

Additional observations from a re-analysis of the deposited data

Results flagged for a closer look

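In 5 of 54 groups examined (9 members in 6 groups of treatment and day, upper-quartile CPM), 1 library lay far from the others of its group by Dixon's criterion, which flags about 1 in 20 groups by chance. let-7a in topsoil pig 3 at day 11 had 36933 CPM, and the next value was 20791. let-7d-3p in control pig 1 at day 11 had 102 CPM (next 61.4). let-7g in control pig 5 at day 11 had 2625 CPM (next 1641). let-7e in control pig 2 at day 56 had 29.2 CPM (next 15.1). let-7f-3p in topsoil pig 2 at day 20 had 0.713 CPM, and the other 4 topsoil pigs had no read. The flagged library of let-7a also had the highest let-7f-5p value of all libraries (104770 CPM).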

How the results depend on the processing

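Over all pigs from day 11 to day 56, the count of called members was 2, and it was 4 with TMM, DESeq2, no filter, summed entries or the let-7 library size (beside 27.3%, 32.5%, 17.7%, 26.8% and 21.5% of all miRNAs), 5 with limma or with no RNA quality term (31.6% in both), and 8 with total counts (77.5%); leaving out 1 pig at a time gave 2 to 3. Without the replicate block (pigs unpaired) 4 were called, beside 32.1%, and the block changed the number of called members in no other comparison. In control pigs from day 11 to day 20 the count of 1 became 0 with TMM, library sizes without miR-486, total counts, no filter, DESeq2, summed entries, limma or the let-7 library size (0% to 7.84% of all miRNAs), and 0 to 2 with 1 pig left out. In control pigs from day 20 to day 56 it was 2 with library sizes without miR-486 (beside 13.9%), and in topsoil pigs from day 20 to day 56 it was 7 with total counts (50.7%) and 1 with no RNA quality term (13.4%). The cause was not tested.

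Direction turned for let-7a (1.62) and let-7c (1.51) from day 11 to day 56 and for let-7c in control pigs from day 20 to day 56 (0.45) with total counts, a scale that miR-486 sets. It turned for let-7f-5p (-0.038) and let-7i-5p (-0.14) with library sizes without miR-486, and for let-7i-5p with DESeq2 (-0.044). With 1 pig left out, the let-7d arm ratio at day 11 (topsoil minus control) was -1.76 to -0.74 (the latter without topsoil pig 1), with an adjusted exact permutation p of 0.0833 without control pig 5, 0.0985 without control pig 7 and 0.0485 without topsoil pig 3. The ratio difference was -0.11 to 0.40 at day 20 and -0.31 to 0.023 at day 56, and the change from day 11 to day 56 was -0.36 to 0.11, none of them past the threshold. Members with few reads, let-7f-3p above all, allow no statement on change.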
